A study of Gallus gallus with 6 samples.

Results

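The chromatin around Pax6 was mapped as the H3K27ac and H3K27me3 peaks and the putative enhancers that lie between positions 4940000 and 5540000 of chromosome 5 (galGal4), about 300 kb on each side of the 6 control enhancers shown in the study's browser view of the gene. These bounds hold 145 of the 242525 intervals in the lists, of which 136 are peaks from 8 peak lists, 6 are control enhancers and 3 are FGF2 enhancers. No predicted AP1 site and no conserved DREiVe region of the accompanying lists falls within the bounds. Posterior pre-placodal ectoderm of HH6 chick embryos was explanted and cultured for 6 h in medium without FGF2 (control) or with FGF2 at 0.25 ng/µl, and about 100 tissues were pooled for each condition. Each mark was profiled by nano-ChIP-seq, a chromatin immunoprecipitation protocol for few cells, in 1 library per condition. No difference can therefore be set against a spread between replicates, no test was possible, and a difference in the cells of the pools and a difference within the cells cannot be told apart.

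Pax6 encodes a paired-box transcription factor that promotes lens, eye and other anterior placode fates, and FGF signalling represses it where otic-epibranchial progenitors (OEPs) form. H3K27ac is found at active promoters and enhancers, while H3K27me3 is deposited by Polycomb complexes at repressed developmental genes. The marks sit on the same lysine and exclude each other on a single histone tail, so a place that carries both has them on different tails, alleles or cells. A call of both marks does not by itself show that a place carries both. In mammals, regulatory elements of Pax6 lie upstream of the gene, in its introns and far away in the introns of its neighbour Elp4, so the peaks were followed well beyond the gene. In the RefSeq gene order of a later chick assembly, GRCg7b, PAX6 lies between ELP4, a subunit of the Elongator complex, and RCN1, a calcium-binding protein of the endoplasmic reticulum, and WT1, a kidney and gonad transcription factor, follows RCN1. Annotation of galGal4 was not used here, so the intervals are given by position and not assigned to exons, introns or these neighbours.

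The analysis uses the positions of peaks from both callers, Homer, which gave every peak in the region a width of 751 bp, and MACS2, whose peaks vary in width. A peak with no overlap of at least 1 bp in the other condition was counted as present in 1 condition only. Such a peak passed the caller's threshold in 1 library and not in the other, which does not show that the mark is absent there. Read depth is unknown from these lists. The MACS2 control H3K27me3 list is short, with 923 peaks that could be placed against 21873 with FGF2, and every MACS2 difference in H3K27me3 has to be read beside that.

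**Figure D1:**
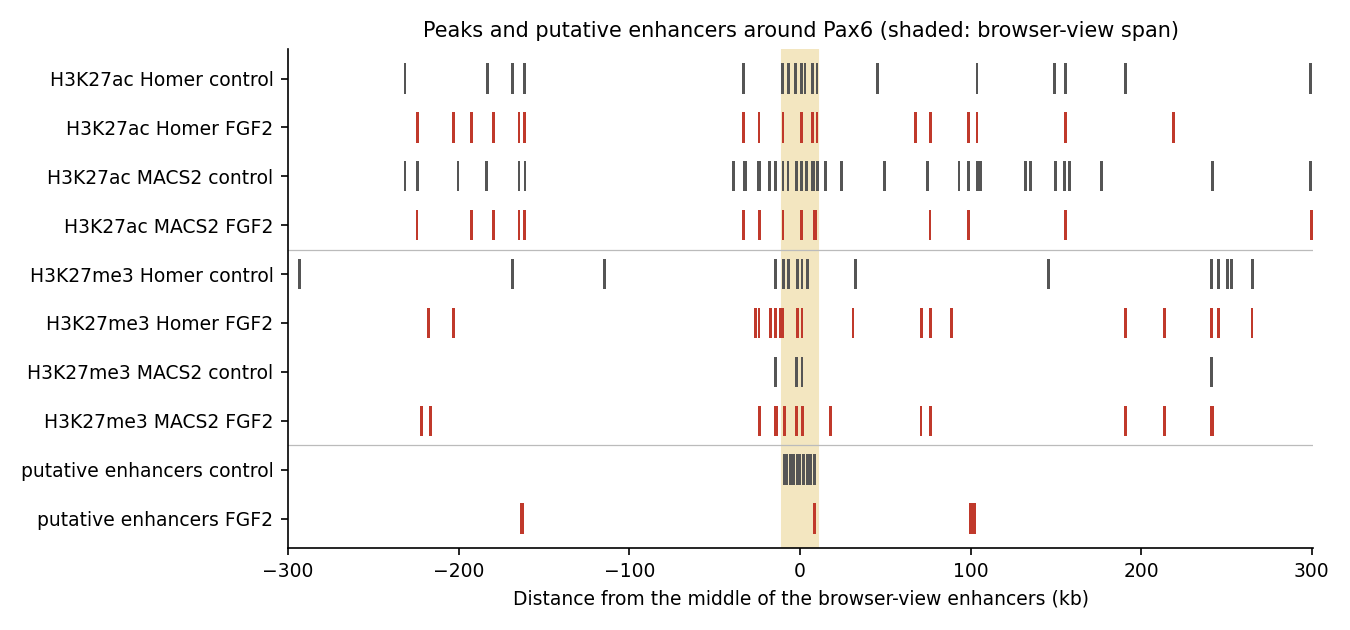
Peaks of each mark, caller and condition and putative enhancers, one row per list, by distance in kb from the middle of the browser-view enhancers (control grey, FGF2 red, browser-view span shaded, intervals narrower than 1.6 kb drawn 1.6 kb wide). The H3K27ac row of MACS2 thins from 34 control to 14 FGF2 peaks, and no H3K27ac peak of any list lies in a 121 kb stretch on the lower side.

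The 6 control enhancers and the 7 Homer H3K27ac peaks that border them span 21 kb, from 5228884 to 5249856. Within this span 3 places had H3K27ac in control by both callers and no H3K27ac peak of either caller with FGF2. The words lost, kept and gained are used below for such differences between the control and FGF2 pools, which are separate tissues and not the same tissue over time. The first is the Homer peak from 5232439 to 5233189, which overlaps the MACS2 peak from 5231656 to 5233045. The next is the Homer peak from 5236608 to 5237358, which overlaps the MACS2 peak from 5236954 to 5237833. The last is the Homer peak from 5242034 to 5242784, which overlaps the wider MACS2 peak from 5242331 to 5243897. The other 4 Homer peaks of the span were called in both conditions, at positions 31 to 224 bp apart. By Homer, 3 of the 7 control peaks of the span were thus lost, or 42.9%, beside 59.3% of all Homer control peaks. On this count the span did not lose a larger share than the whole list. The kept peaks start in control at 5228884, 5240161, 5246556 and 5249106, so the places at both ends of the span and a pair of places inside it kept H3K27ac. MACS2 called a single FGF2 peak of 2846 bp, from 5246829 to 5249674, across both kept places at the higher end.

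None of the 3 lost places had H3K27me3 with FGF2 where control had none, by either caller. In control, Homer called 5 H3K27me3 peaks in the span, and 3 with FGF2. The control H3K27me3 peaks that start at 5232478 and 5243422 overlap 2 of the 3 lost places. The latter overlaps only part of the wider MACS2 H3K27ac peak and none of the Homer H3K27ac peak. With FGF2 neither caller had an H3K27me3 peak at either place. Neither mark was called with FGF2 at these 2 places. The middle lost place differs from them, because H3K27me3 was called there in both conditions and by both callers, with a MACS2 peak from 5236957 to 5237831 in control and to 5238041 with FGF2. Its Homer H3K27me3 peaks start at 5237545 in control and 5237392 with FGF2. They overlap part of the control MACS2 H3K27ac peak and none of the Homer H3K27ac peak. No Homer H3K27me3 peak of the span was present with FGF2 only. MACS2 added 1, from 5229722 to 5230842, at the kept place at the lower end, where Homer had called H3K27me3 in both conditions.

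The place from 5240110 to 5240911 had H3K27ac and H3K27me3 peaks in all 8 lists. Its H3K27me3 peak ranked 13 among the 1144 Homer control peaks of the chromosome in the order of the list, or at 1.14% from the top, and at 8.88% of 1588 with FGF2. It is the only place of the 42 with H3K27ac that has both marks in all lists. The place from 5228884 to 5229898 also had both marks in both conditions, but MACS2 did not call its H3K27me3 in control.

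**Figure D2:**
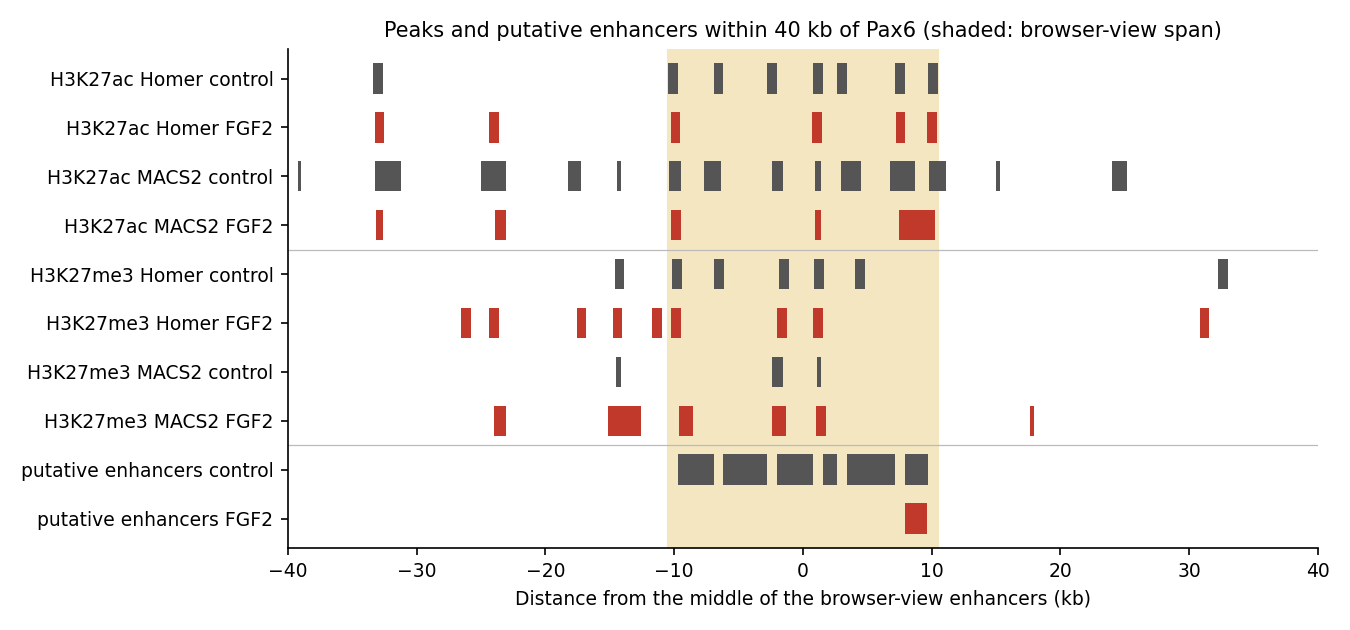
The same lists within 40 kb of the middle of the browser-view enhancers, with intervals drawn to scale on an axis in kb (control grey, FGF2 red, browser-view span shaded). H3K27ac peaks at 3 places of the span are present in both control rows and missing in both FGF2 rows, and the FGF2 H3K27me3 rows hold more peaks than the control rows just below the span.

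Beyond the span the callers differ in direction. Homer called 18 H3K27ac peaks in each condition over the whole neighbourhood, 7 of them in the span in control and 4 with FGF2, so that outside the span the number went from 11 to 14. MACS2 called 34 in control and 14 with FGF2, 27 and 11 of them outside the span. Of the 18 Homer control peaks, 10 had no FGF2 peak, or 55.6% (95% Wilson confidence interval 33.7 to 75.4%), beside 59.3% of all Homer control peaks. Of the 34 MACS2 control peaks, 22 had none, or 64.7% (47.9 to 78.5%), beside 57.4% of all. In the other direction, 10 of 18 Homer FGF2 peaks had no control peak, or 55.6% against 64.4% of all, and 3 of 14 MACS2 FGF2 peaks, or 21.4% (7.57 to 47.6%) against 41.7% of all. Each of the 4 intervals contains the value over all peaks. These intervals reflect counting error alone, as if each peak were independent of its neighbours.

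Overlapping H3K27ac peaks of the 4 lists were joined into 42 places. Of 14 places with control peaks by both callers, 6 had no FGF2 peak by either, or 42.9% (21.4 to 67.4%), against 38.5% of all such places. The 3 outside the span lie at 5007564 to 5008314 and 5055086 to 5056615, which are 221 and 172 kb below the span, and at 5388111 to 5389745, 138 kb above it. Of 13 places with FGF2 peaks by both callers, 3 had no control peak, or 23.1% (31.7% of all). They lie at 5046547 to 5047297 and 5059595 to 5060345, 182 and 169 kb below the span, and at 5315357 to 5316107, 65.5 kb above it. By the calls on which both programs agree, the span had 3 losses and 0 gains, and the flanks together had 3 of each. The nearest loss by both callers outside the span was thus 138 kb away. The span was itself defined by control H3K27ac peaks, which favours losses over gains within it. Its counts beside those of the flanks therefore cannot show whether loss is concentrated there.

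With calls by either program, 36 places had control H3K27ac and 24 of them had none with FGF2, or 66.7% (50.3 to 79.8%), against 54.6% of all such places. On the higher side this was so at 14 of 18 places, on the lower side at 7 of 12, and in the span at 3 of 6. Of these 24, 15 were control calls of MACS2 alone, all outside the span and 11 of them on the higher side. Going up from the span, control places without an FGF2 peak were 4 of 4 in the first 50 kb, 3 of 5 from 50 to 100 kb and 4 of 5 from 100 to 150 kb. Each of the 4 in the first 50 kb was called in control by a single program only. The first FGF2 peak met on this side was a Homer peak 56.8 kb from the span, and the first called by both programs lay at 65.5 kb. Below the span, 3 of 5 control places within 50 kb had no FGF2 peak, but the nearest place with FGF2 H3K27ac lay only 12.5 kb away, from 5214388 to 5216347. A further place, from 5205998 to 5208162 at 20.7 kb, had H3K27ac in all 4 lists. Beyond a control MACS2 peak that starts at 5200144 came a stretch of 121 kb, from 5079001 to 5200143, in which no list had H3K27ac in either condition. Between 150 and 200 kb below the span, MACS2 called 4 peaks in each condition and Homer 3 in control and 5 with FGF2.

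**Figure D3:**
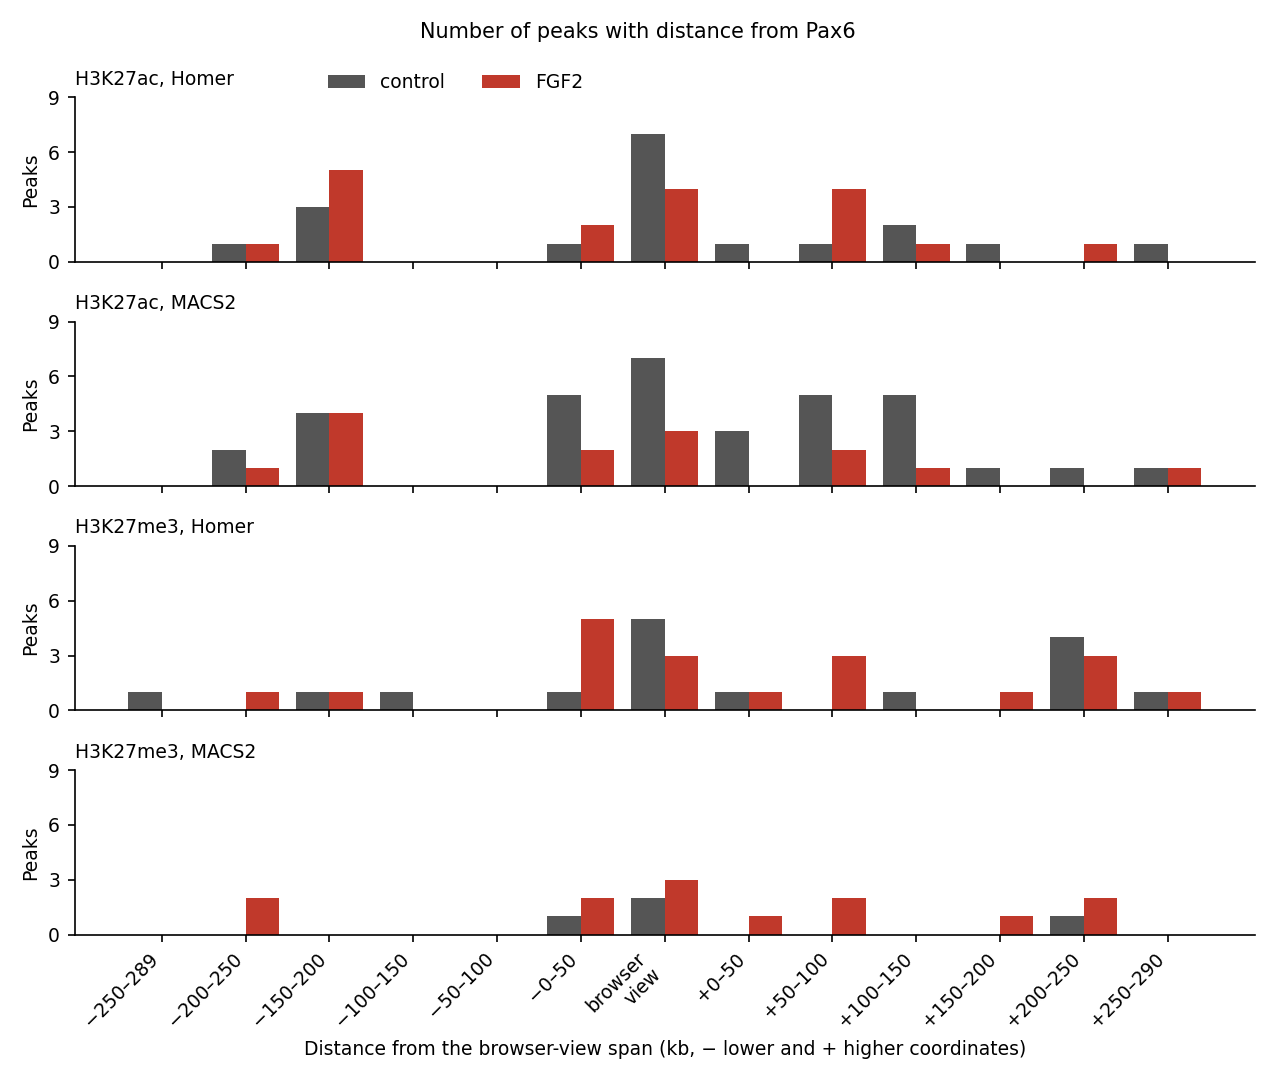
Number of peaks in the browser-view span and in steps of 50 kb outward from it, the outermost ending at 289 kb below and 290 kb above, for each mark and caller (control grey, FGF2 red). MACS2 H3K27ac peaks went from 3 to 0, 5 to 2 and 5 to 1 in the first steps above the span, where Homer had 1 and 0, 1 and 4, and 2 and 1.

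Peaks called in both conditions were compared by their place in the Homer lists and by their MACS2 width. The Homer lists are in an order that the sources used here do not explain, but the share of chromosome 5 H3K27ac peaks that MACS2 also called falls from 96.6% in the first 10% of the control list to 10.1% in the last 10%, and from 90.9% to 11.3% in the FGF2 list. Of the 8 Homer H3K27ac peaks around Pax6 called in both conditions, 6 stood further down the FGF2 list than the control list, or 75.0% (40.9 to 92.9%), as did 42.4% of the 774 such peaks on chromosome 5. Their median change in place was 17.5 percentage points, and that of the chromosome was -1.27. The peak that starts at 5249106 in control moved from 21.0% to 51.2% and that at 5394460 from 23.3% to 59.0%, while the peak at 5246556 stayed near the top, at 11.5% and 13.0%. The 2 that moved up are those starting at 5205998, from 59.7% to 55.0%, and at 5228884, from 66.6% to 60.2%. MACS2 peaks with a single partner in the other condition were wider with FGF2 in 2 of 10 cases, or 20% (5.67 to 51.0%), against 47.1% of all such pairs. Both intervals contain the value over all pairs, so on these counts neither measure sets the peaks around Pax6 apart. Their median width was 1096 bp in control and 544 bp with FGF2. Over all pairs the medians were 1129 and 1107 bp.

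In the control list, the 3 Homer peaks of the span without an FGF2 peak stood at 25.4%, 67.2% and 47.8%, and the 4 with an FGF2 peak at 66.6%, 18.1%, 11.5% and 21.0%. The groups overlap. Over the whole neighbourhood, the 10 peaks without an FGF2 peak had a median place of 57.5% and the 8 kept a median of 22.4%. On the chromosome these medians were 63.1% and 31.3%, so the order in the list went with the outcome in the same direction there. The control peak nearest to the top of its list, from 5538243 at 8.95%, had no FGF2 Homer peak, but it overlaps the FGF2 MACS2 H3K27ac peak from 5538724 to 5539542.

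**Figure D4:**
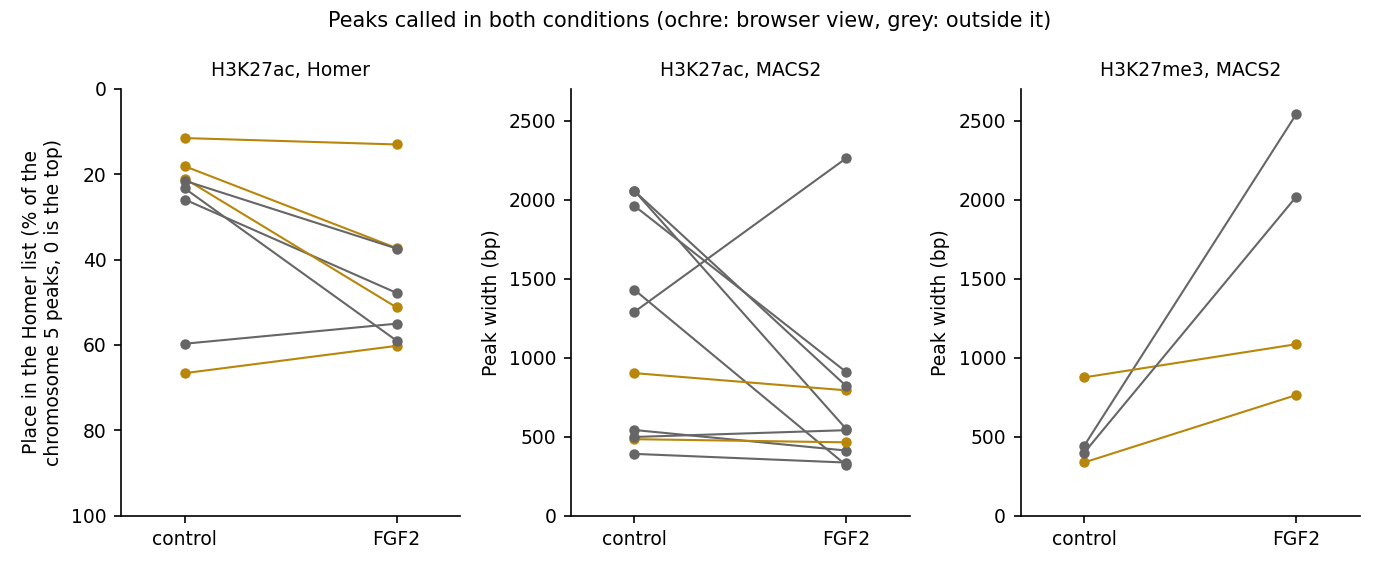
Peaks around Pax6 called in both conditions, with a line from control to FGF2 for each (browser-view span ochre, outside it grey). The left panel gives the place of 8 Homer H3K27ac peaks in their list in percent, 6 of which moved down, and the other panels give MACS2 peak widths in bp, with 2 of 10 H3K27ac and 4 of 4 H3K27me3 peaks wider with FGF2.

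For H3K27me3, Homer called 16 peaks in control and 19 with FGF2, and MACS2 4 and 13. The ratio of FGF2 to control peaks was 1.19 by Homer, where that of all peaks was 1.56. By MACS2 it was 3.25, where that of all peaks was 24.2. The number of H3K27me3 peaks therefore rose less here than over the whole lists. Of the Homer peaks, 9 of 16 control peaks had no FGF2 peak, or 56.2% (33.2 to 76.9%), against 78.9% of all, and 12 of 19 FGF2 peaks had no control peak, or 63.2% (41.0 to 80.9%), against 86.5% of all. Of the MACS2 peaks, 9 of 13 FGF2 peaks had no control peak, or 69.2% (42.4 to 87.3%), against 97.3% of all. None of the 4 MACS2 control peaks lacked an FGF2 peak (interval 0 to 49.0%, 40% of all). The first 3 intervals lie below the value over all peaks. In these libraries, H3K27me3 peaks here thus had a partner in the other condition more often than over the whole lists. The MACS2 value of 97.3% was largely set by list length, because 923 control peaks can partner few of 21873 FGF2 peaks. Of 1400 windows of this width, 1360 had fewer control MACS2 peaks than the 4 here. The MACS2 comparison therefore shows little beyond these numbers. All intervals treat neighbouring peaks as independent. The 2 Homer shares count the same 7 overlapping pairs from each side, so the 3 comparisons are not independent. The last interval, for the 4 MACS2 control peaks, contains the value over all peaks. Homer also called H3K27me3 at these 4 places in both conditions, where 33.6% of all places called by both programs in control had no FGF2 peak. Their MACS2 peaks widened from 443 to 2540 bp at 5224836, from 875 to 1085 bp at 5236957, from 337 to 763 bp at 5240444 and from 399 to 2018 bp at 5480543. All 4 were wider with FGF2 (interval 51.0 to 100%), as were 67.5% of the 483 such pairs over all chromosomes.

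Of 10 places with FGF2 H3K27me3 by both callers, 5 had no control peak, or 50% (23.7 to 76.3%), an interval below the 80% of all such places. This comparison draws on the same peaks as the shares above and is not independent of them. The 5 places without a control peak are spread over the neighbourhood. These 5 lie 12.6 kb below the span and 60.3, 65.6, 180 and 203 kb above it. The largest Homer increase of any 50-kb step, singled out after the values were seen, was in the first below the span, with 1 control and 5 FGF2 peaks. Of these, the ones present with FGF2 only start at 5212823, 5214983, 5221786 and 5227639, and the last ends 0.495 kb from the span. Over the whole list, 86.5% of Homer FGF2 H3K27me3 peaks were present with FGF2 only, so such peaks are not particular to this step. The peak at 5214983 was also called by MACS2 and lies on the nearest place below the span that kept H3K27ac. In control, H3K27ac at this place was called by MACS2 alone, and with FGF2 by both programs, so by Homer it was present with FGF2 only. Between this place and the span, MACS2 had called control H3K27ac from 5221118 to 5222113 and from 5224954 to 5225272, and neither program called it there with FGF2. A second group of H3K27me3 peaks lies 230 to 254 kb above the span, with 5 Homer peaks in control and 3 with FGF2. The control MACS2 H3K27ac peak from 5480733 to 5481776 in this group was also missing with FGF2.

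The shares of peaks called for both marks were above those of the whole lists, on counts of 4 or 5, but clear of them only in control. The intervals below count peaks that lie close together as independent. In control, 4 of 18 Homer H3K27ac peaks overlapped an H3K27me3 peak, or 22.2% (9.00 to 45.2%), against 8.84% of all, and 3 of the 4 lie in the span. By MACS2 it was 4 of 34, or 11.8% (4.67 to 26.6%), against 0.858% of all, and 3 of these 4 places lie in the span or 3.61 kb below it. With FGF2 the shares were 27.8% (12.5 to 50.9%) by Homer and 28.6% (11.7 to 54.6%) by MACS2, against 17.4% and 16.6% of all. The interval excludes the value over all peaks in both control comparisons and contains it in both FGF2 comparisons. By Homer the control exclusion is narrow, with a lower bound of 9.00% against 8.84%. It also counts the peak outside the span, from 5070469 to 5071219, where MACS2 called neither mark. Of the 4 MACS2 places with both marks in control, H3K27ac was kept only at 5240290 to 5240773. At 5224954, 5236954 and 5480733 neither program called H3K27ac with FGF2, while H3K27me3 remained called by both.

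**Figure D5:**
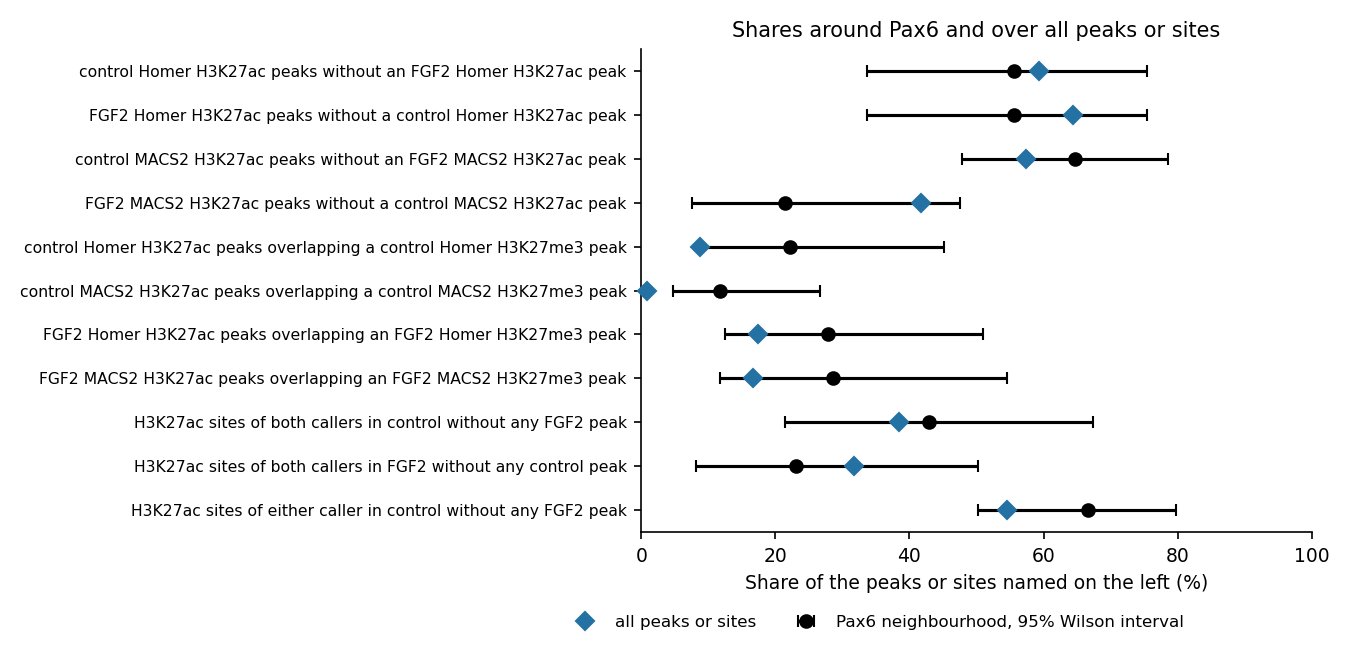
Shares in percent of the H3K27ac peaks or places around Pax6 (black points with 95% Wilson intervals) beside the same share over all peaks or places (blue diamonds), with the kind of peak or site named on the left. The diamond lies inside the interval in every row except those for control H3K27ac peaks that overlap control H3K27me3 peaks.

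Of the 24 places with H3K27ac in control only, 2 had no H3K27me3 in control and an H3K27me3 peak with FGF2. The same share over all control-only places was not computed, so this count cannot be read as particular to Pax6. The FGF2 H3K27me3 lists are also longer throughout, with 32518 Homer peaks against 20827 in control. At the place from 5221118 to 5222113, 6.77 kb below the span, control H3K27ac was called by MACS2 and FGF2 H3K27me3 by Homer. The other was called by more lists. The Homer control H3K27ac peak from 5429876 to 5430626, 180 kb above the span, had no H3K27ac peak with FGF2, and an H3K27me3 peak was called over it by Homer from 5429841 to 5430591 and by MACS2 from 5429989 to 5430284. At 5315357 to 5316107, FGF2 tissue had both marks by both callers and control tissue neither. Homer alone called both marks with FGF2 only at 5035935 to 5036685. The place from 5070469 to 5071219 had Homer peaks of both marks at identical positions in control and no peak with FGF2. They stood at 99.8% and 98.8% of their lists, and MACS2 called neither.

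The study's methods define putative enhancers as stretches of up to 3 kb between H3K27ac peaks without H3K27me3. The definition is given for control and FGF2-treated tissue alike. Among the 6 deposited control entries around Pax6, 2 exceed 3 kb in width and 5 share sequence with Homer H3K27me3 in control. By Homer peaks, most of them therefore do not meet that definition. By MACS2, only the entry from 5237359 to 5240160 overlaps control H3K27me3, in a list that is short. The same shares over all deposited control entries were not computed, so these counts cannot be read as particular to Pax6. The FGF2 list has 3 entries here, none over an FGF2 Homer H3K27me3 peak. That from 5247338 to 5249020 lies in the span and overlaps the control enhancer from 5247307 to 5249105. The others, from 5075181 to 5077523 and from 5338588 to 5342840, which is 4253 bp wide, have no control entry. Each lies between Homer FGF2 H3K27ac peaks, and MACS2 had called control H3K27ac at all 4 bordering places. The 6 control entries lie in the span, and 5 of them border at least 1 of the 3 lost Homer peaks. In the control list 81 runs of 6 neighbouring enhancers shared a median of 3 with the FGF2 list, and 24 of the 81 shared 1, as at Pax6, or none. Such runs are a small part of the list. Over all putative enhancers, the study reported far more as unique to either condition than as common to both. Entries without a partner in the other condition therefore cannot be read as particular to Pax6.

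The number of MACS2 H3K27ac peaks in windows of the same width went from 29 in control to 25 with FGF2 around Dlx5/6 and from 42 to 21 around Gata3, transcription factor genes that FGF also represses in this tissue, and from 57 to 33 around Eya2, a sensory progenitor gene. It went from 14 to 46 around Spry1, an FGF target and feedback inhibitor, and from 44 to 31 around Foxi3, an OEP factor that FGF induces, where Homer went from 19 to 45. By Homer, the number went from 33 to 32 around Dlx5/6, from 34 to 27 around Gata3, from 45 to 41 around Eya2 and from 8 to 54 around Spry1. The ratio of FGF2 to control H3K27ac peaks around Pax6 was 0.412 by MACS2, where that of all peaks was 0.700, and 1 by Homer, where that of all peaks was 1.14. Losses by both callers were 6 of 14 control places around Pax6, 4 of 22 around Dlx5/6, 10 of 19 around Gata3, 7 of 14 around Foxi3, 2 of 4 around Spry1 and 13 of 32 around Eya2. Among 1400 adjoining windows of 600 kb, the median was 4 losses by both callers, with 894 windows below the 6 around Pax6 and 427 above, and the median of Homer losses was 9, beside 10 around Pax6. These counts also depend on how many peaks control had, with a median of 8 control places by both callers, beside 14 around Pax6. As a share of control Homer peaks, losses were 55.6% around Pax6, below the median of 65.2% over the 1376 windows with a share. Of those, 408 lay below Pax6 and 955 above. Control MACS2 H3K27me3 stood furthest from the middle of the 1400 windows, with 1360 having fewer than the 4 peaks around Pax6 and 24 more. With FGF2, 780 windows had fewer than the 13 around Pax6 and 547 had more.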

How the data were processed

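H3K27ac and H3K27me3 were profiled in 4 libraries, 1 for each condition and mark, with 2 input libraries that have no peak lists. Per the methods, 9 bases were removed from the start of reads before Novoalign placed them on galGal4. Peaks over input were those passing 1.5-fold enrichment and a false discovery rate of 0.01 in Homer, or a false discovery rate of 0.05 in MACS2, as set by the authors. The deposited lists hold start and end positions. Depth is unknown, and no intervals on levels can be given.

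Intervals lying wholly within the bounds were taken, and none crossed them. Overlap meant at least 1 shared bp. Places are overlapping peaks of a mark joined over callers and conditions. The place of a Homer peak is its order among those of chromosome 5, in percent. In the comparisons with all peaks, MACS2 peaks from 100 Mb on chromosomes whose control positions are rounded were left out, and 477 blank lines were skipped. For the joined places, Homer peaks there were left out as well. The ratios of FGF2 to control peak numbers over all peaks used the full lists. No test was run. The bounds, the region and the comparison windows were chosen with earlier results of these data known. Single intervals are named where they overlap the browser-view enhancers, where both callers lost or gained H3K27ac, where both marks overlap or where a mark switched. Peaks singled out for place in the list or width were chosen after their values were seen. Alternatives covered the caller, the overlap, the bounds, the covered length and the enhancer definition. The overlap steps were tested on simulated intervals. Python 3.11.15, scipy 1.17.1 and matplotlib 3.10.9 were used. Positions are galGal4, counted from 1. RefSeq gene order is from GRCg7b. Sequences were not used here.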

Additional observations from a re-analysis of the deposited data

How the results depend on the processing

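With 1 library per condition and mark, no replicate could be left out. The results depend on the caller, the bounds and the enhancer definition. No paired analysis was possible because the groups compared share fewer than 2 replicate numbers. The difference in H3K27ac peaks, FGF2 minus control, was 0 by Homer, -20 by MACS2, -1 for Homer peaks that MACS2 also called, -3 by Homer in the browser-view span and -21.0 kb of length covered by MACS2 peaks. Outside the span it was 3 by Homer and -16 by MACS2, the opposite direction. For H3K27me3 it was 3 by Homer, 9 by MACS2, 6 for Homer peaks that MACS2 also called and 8.72 kb of length covered by MACS2 peaks. By Homer it was 5 within 100 kb of the enhancers and -2 in the span alone. MACS2 went the other way in the span, from 2 H3K27me3 peaks in control to 3 with FGF2. As ratios of FGF2 to control, the H3K27me3 peak numbers of the neighbourhood rose less than those of all peaks, by either caller. The difference in putative enhancers was -3 and turned to 1 and 2 when enhancers were derived as gaps of up to 3 and 5 kb between Homer H3K27ac peaks without H3K27me3, and to 2 outside the span. The share of FGF2 H3K27ac peaks without a control peak went from 55.6% to 21.4% by MACS2 and to 0 of 4 in the span. The share of control H3K27ac peaks without an FGF2 peak stayed within its interval in all 6 alternatives, from 40 to 64.7%. The shares with both marks stayed within theirs in all 4 alternatives in each condition. The cause of these differences was not tested. Depth limits every absence of a peak.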
